A study of Mus musculus with 18 samples.

Results

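Canonical Wnt signalling was followed through 9 genes in cells grown from mouse embryonic stem cells toward heart muscle. The genes were taken by symbol from a deposited count table of 23337 gene symbols. Of the 9, 5 are readouts of the pathway inside the cell (Axin2, Lef1, Tcf7, Nkd1 and Sp5) and 4 are secreted modulators (Dkk1, Sfrp1, Sfrp2 and Rspo3). Each of them was found in the table and passed the filter on low counts, Sp5 through its 3 D5 libraries and 1 D15 library alone.

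In the canonical pathway, a Wnt ligand binds a Frizzled receptor together with Lrp5 or Lrp6, the complex of Axin, Apc and Gsk3 that marks beta-catenin for destruction is disabled, and beta-catenin enters the nucleus, where TCF and LEF factors carry it to target genes. Many of those targets act back on the pathway, and secreted antagonists and agonists set how much ligand or receptor a cell can use. In the embryo the pathway is needed to make mesoderm at the primitive streak, and antagonists of it favour heart formation from that mesoderm afterwards.

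The cells, untreated throughout, belonged to the line TBX5-FTA with A2Lox.cre as its strain, and no group compared here was perturbed. The groups were harvests of day 5, 6 and 7 of differentiation (D5, D6 and D7), labelled as cardiac progenitors, and of day 8, 10 and 15 (D8, D10 and D15), labelled as immature cardiomyocytes. Each harvest had 3 libraries of poly(A) RNA, 18 in all, with total counts from 5257601 to 7122093. The data come from 1 cell line, the labels name no separate cultures behind the libraries of a day, and the p-values therefore measure a spread between libraries that may be technical only.

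The markers of several cell types were present in every harvest, so that a level in these bulk samples may be a mean over a mixture of cells. All 12 cardiomyocyte markers had counts on each day, and their summed level was 477.0 to 557.4 CPM (counts relative to library totals, made comparable by TMM factors) at D5 and 6015 to 10560 CPM at D15. On each of the 6 days that sum was highest in the first and lowest in the third of the 3 columns of the table. The sum of 10 fibroblast and matrix markers was 737.6 to 776.6 CPM at D5 and 40340 to 49400 CPM at D15, and that of 8 epicardium markers 372.8 to 408.9 CPM at D5, where Msln had no count, and 2548 to 2681 CPM at D15. The summed level of 8 primitive streak and early mesoderm markers had a mean of 28.03 CPM at D5 and of 1.25 CPM at D15, where Mesp1, Eomes and Wnt3 had no count. In bulk RNA, fewer cells of a type and less RNA per cell cannot be told apart, and this holds for every level given here. Whether the harvests were mixtures of cells, and the part of such mixtures in the results, was not tested.

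**Figure D1:**
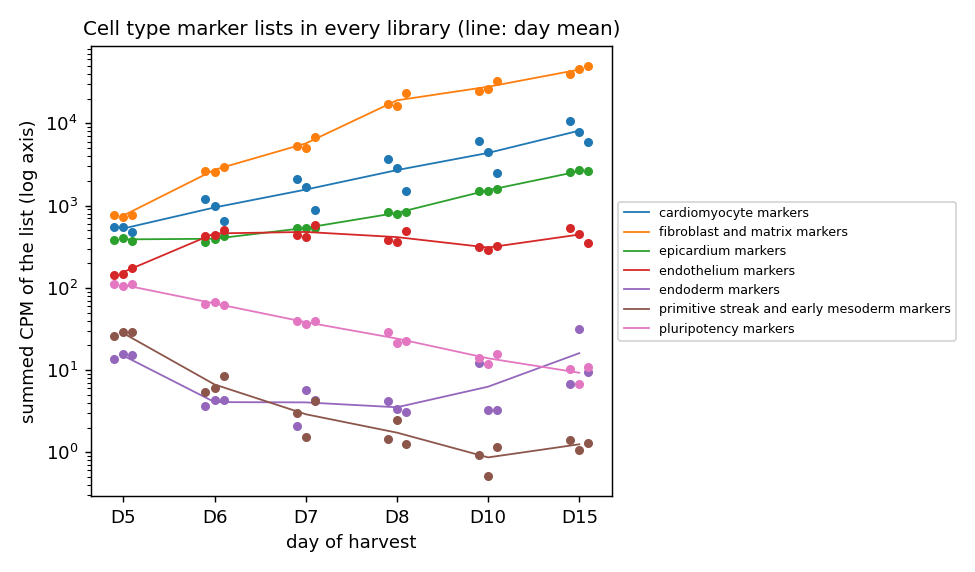
Summed CPM of 7 cell type marker lists (y axis, log scale) in every library by day of harvest (x axis), with points for libraries and a line through the day means. The fibroblast and cardiomyocyte sums are highest at the last harvest, where the fibroblast sum has a mean of 45200 CPM and the cardiomyocyte sum one of 8172 CPM, while the pluripotency sum has means of 108.5 CPM at D5 and 9.27 CPM at D15.

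Across the 6 harvests, Axin2, Lef1 and Tcf7 were highest at D5 and lower at D7. So was Sp5, but only as a description, because it passed the filter mainly through D5. From D10 to D15, Axin2, Lef1, Nkd1 and Sp5 rose and Tcf7 fell, where 26.4% of all tested genes rose and 24.4% fell. Sp5 had 1 count at D10 and 22 at D15. Of 13 further tested targets of the pathway, 4 rose and 3 fell in that step. The antagonist Dkk1 was also highest at D5. Sfrp1 was highest at D10 and Sfrp2 at D15. In the test across days 9 of the 9 genes passed, among them Sp5 with its filter through D5, where 88.9% of the 13116 tested genes did (edgeR quasi-likelihood F test, Benjamini-Hochberg adjusted p under 0.05). The highest day mean was 46.5 times the lowest for Sfrp2, 42.4 times for Dkk1, 16.1 times for Sfrp1 and 2.59 times for Rspo3.

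**Figure D2:**
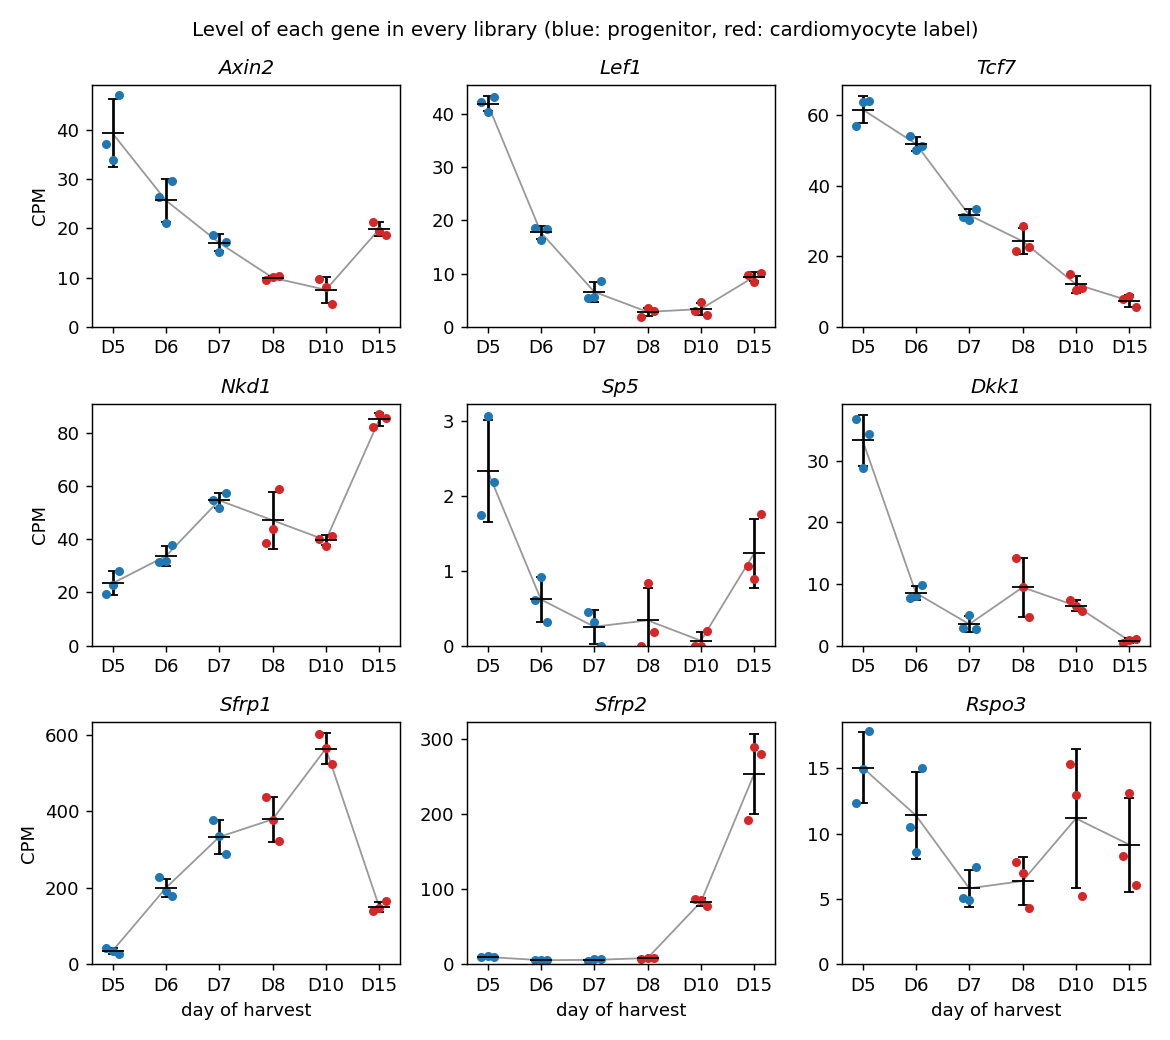
CPM of the 9 genes (y axis, one scale per gene) in each of the 18 libraries by day of harvest (x axis), with the mean and SD of the 3 libraries of a day as bars. Axin2, Lef1 and Sp5 are high at D5, low at D8 and D10 and higher again at D15, Sfrp1 has its highest point at D10, and Sfrp2 has means of 5.46 to 9.63 CPM through D8 and libraries between 192.9 and 289.8 CPM at D15.

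Axin2 encodes a scaffold of the destruction complex, is induced by beta-catenin and lowers the signal in turn (mm10 chr11:108920349-108950783, forward strand, 14 merged exons). Its 3 libraries stood at 37.1, 33.8 and 47.0 CPM at D5, at 26.3, 21.1 and 29.6 CPM at D6 and at 18.7, 15.3 and 17.2 CPM at D7. They stood at 9.58, 10.1 and 10.2 CPM at D8, at 9.82, 8.11 and 4.64 CPM at D10 and at 21.3, 19.5 and 18.7 CPM at D15. Libraries of D5, D6 and D7 did not overlap, D8 and D10 shared the lowest range, and D15 lay above D10 and overlapped both D6 and D7. The log2 fold change was -1.20 ± 0.16 (SE) from D5 to D7 (adjusted p = 3.47e-07, edgeR) and 1.37 ± 0.20 from D10 to D15 (adjusted p = 1.02e-06). At D15 Axin2 remained below D5, with a log2 fold change of -0.99 ± 0.16 (adjusted p = 2.31e-06). From D6 to D7 it fell by 0.59 on the log2 scale (adjusted p = 0.00766), a call that was lost without the third D6 library of the table (-0.47, adjusted p = 0.0582).

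Lef1 and Tcf7 encode TCF/LEF factors, which bind DNA for beta-catenin, and both genes are themselves targets of the pathway. Lef1 (chr3:131110471-131224356, forward strand) stood at 42.3, 40.4 and 43.2 CPM at D5, at 18.5, 16.4 and 18.4 CPM at D6 and at 5.36, 5.71 and 8.68 CPM at D7. It stood at 1.89, 3.48 and 3.05 CPM at D8, at 3.07, 4.66 and 2.32 CPM at D10 and at 9.70, 8.50 and 10.1 CPM at D15. The harvests from D5 to D8 were separate from each other, D8 and D10 overlapped, and all 3 D15 libraries lay above D10 and overlapped D7. Lef1 fell by 2.67 ± 0.18 on the log2 scale from D5 to D7 (adjusted p = 4.69e-13) and by 1.24 ± 0.26 from D7 to D8 (adjusted p = 0.00057), then rose by 1.48 ± 0.24 from D10 to D15 (adjusted p = 7.05e-06). The log2 fold change of D15 against D5 was -2.15 ± 0.17 (adjusted p = 3.29e-12).

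Tcf7 (chr11:52252371-52283014, reverse strand) took another course from D10 on. Its libraries stood at 57.0, 63.8 and 63.9 CPM at D5, at 54.1, 50.0 and 51.3 CPM at D6 and at 31.1, 30.4 and 33.5 CPM at D7. They stood at 21.6, 28.5 and 22.6 CPM at D8, at 14.9, 10.4 and 11.01 CPM at D10 and at 7.76, 8.85 and 5.60 CPM at D15. The libraries of each harvest lay under all those of the harvest before, with no overlap anywhere in the series. Tcf7 fell by 0.99 ± 0.15 on the log2 scale from D8 to D10 (adjusted p = 6.39e-06) and by 0.73 ± 0.18 from D10 to D15 (adjusted p = 0.00125), the step in which Axin2, Lef1, Nkd1 and Sp5 rose. Over the whole course it fell by 3.06 ± 0.15 (adjusted p = 2.70e-17). The step from D5 to D6 did not pass (-0.25 ± 0.12, adjusted p = 0.0969), although it did in limma-voom (0.0381) and in a fit of these days alone (0.0167). The fall of 0.39 ± 0.13 from D7 to D8 (adjusted p = 0.031) lost its call without any 1 of the 3 D7 libraries, the first D8 library or the third D8 library, with adjusted p from 0.0502 to 0.161.

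Nkd1 encodes a negative feedback protein that binds Dishevelled, the link between receptor and destruction complex (chr8:88521354-88594884, forward strand). Its libraries stood at 19.3, 22.8 and 28.2 CPM at D5, at 31.5, 31.7 and 37.9 CPM at D6 and at 54.6, 51.8 and 57.5 CPM at D7. They stood at 38.6, 43.8 and 59.0 CPM at D8, at 40.2, 37.6 and 41.2 CPM at D10 and at 82.3, 87.3 and 85.7 CPM at D15. D5, D6 and D7 were separate and in rising order, D7 and D8 overlapped as did D8 and D10, and D15 was above every other library. Nkd1 rose by 1.22 ± 0.13 on the log2 scale from D5 to D7 (adjusted p = 1.06e-08), over the days in which Axin2, Lef1 and Tcf7 fell. It rose by a further 1.10 ± 0.12 from D10 to D15 (adjusted p = 2.23e-08). The steps from D7 to D8 (-0.22, adjusted p = 0.205) and from D8 to D10 (-0.24, adjusted p = 0.156) did not pass. Without the third D8 library the first of these was called (-0.41, adjusted p = 0.0131), and without the first D8 library the second was (-0.38, adjusted p = 0.0292).

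Sp5 encodes a zinc finger factor of the Sp family that is induced by Wnt in many embryonic tissues and acts at Wnt target genes (chr2:70474923-70477729, forward strand). It was the least abundant of the 9 genes from D5 to D10, with 12, 22 and 16 counts at D5, 4, 6 and 2 counts at D6 and 3, 2 and 0 counts at D7. There were 0, 5 and 1 counts at D8, 0, 0 and 1 counts at D10 and 6, 5 and 11 counts at D15. The D5 libraries lay above all those of D6 to D10, and the D15 libraries overlapped D5. Because Sp5 passed the filter through its D5 libraries, its difference from D5 is a description. Relative to TMM-adjusted library totals, the D5 level was 3.78 times that of D6 (95% counting interval 1.98 to 7.80), 9.20 times that of D7 (3.69 to 29.6) and 1.87 times that of D15 (1.11 to 3.24). The fitted difference between D15 and D5 did not pass the test, which counts the spread between libraries as well (-0.89 ± 0.53, adjusted p = 0.121).

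Between D10, with 1 count in all, and D15, with 22, the ratio was 21.9 (3.54 to 904), and the fitted log2 fold change was 4.04 ± 1.18 (adjusted p = 0.00229). It became 6.02 without the third D10 library, the one with the count (adjusted p = 0.00277). The rise from D8 to D15 (1.87 ± 0.79, adjusted p = 0.0333) rested on single libraries. It was 1.24 without the first D8 library (adjusted p = 0.164), 1.63 without the third D8 library (0.0942), 1.52 without the third D15 library (0.138) and 3.66 without the second D8 library (0.005). These intervals cover counting error only.

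Promoter sequences of 3 of the genes with lower levels at D7 than at D5 are printed to show where the letters that TCF and LEF factors prefer do and do not occur close to the start. The windows are RefSeq's on GRCm38.p6, the assembly of mm10, and hold 300 bases, 250 before the annotated start and 50 from it on, read 5′ to 3′ on the strand of the gene. The motif searched was CTTTG followed by 2 bases that are each A or T, 7 bases in all, on both strands, and matches are in capitals. The windows of Sp5 (chr2:70474673-70474972, forward strand), Dkk1 (chr19:30549447-30549746, reverse strand) and Axin2 (chr11:108920099-108920398, forward strand) read:
Sp5: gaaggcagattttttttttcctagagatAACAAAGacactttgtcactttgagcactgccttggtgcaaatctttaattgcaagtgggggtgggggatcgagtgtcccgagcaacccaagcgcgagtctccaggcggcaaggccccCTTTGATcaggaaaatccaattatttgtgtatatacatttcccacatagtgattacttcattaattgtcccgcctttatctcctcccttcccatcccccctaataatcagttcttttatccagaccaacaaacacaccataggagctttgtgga
Dkk1: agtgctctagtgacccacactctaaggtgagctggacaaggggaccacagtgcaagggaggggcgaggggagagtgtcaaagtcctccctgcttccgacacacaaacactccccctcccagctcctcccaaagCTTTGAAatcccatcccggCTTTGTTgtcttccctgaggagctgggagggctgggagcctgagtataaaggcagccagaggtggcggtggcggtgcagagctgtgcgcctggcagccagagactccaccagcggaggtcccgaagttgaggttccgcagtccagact
Axin2: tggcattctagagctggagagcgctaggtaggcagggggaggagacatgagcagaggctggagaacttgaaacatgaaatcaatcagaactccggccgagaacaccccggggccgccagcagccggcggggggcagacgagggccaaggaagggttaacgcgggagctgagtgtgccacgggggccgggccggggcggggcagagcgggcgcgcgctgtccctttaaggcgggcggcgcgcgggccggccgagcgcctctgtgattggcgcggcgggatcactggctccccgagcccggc

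Sp5 had 2 matches, AACAAAG at -222 from the start (CTTTGTT on the opposite strand) and CTTTGAT at -104. Dkk1 had 2, CTTTGAA at -117 and CTTTGTT at -98. Axin2 had 0 in its window. Of the 9 genes, 7 had 1 or more windows in the RefSeq table, 11 windows in all, and 3 genes had a match, the third being Lef1 with 1 match in 1 of its 4 windows. For comparison, 16.9% of all 32851 windows held at least 1 match and 1.94% held 2 or more, and by gene 18.95% of 27025 had a match in at least 1 window. A match is a description of letters, and the absence of one concerns these windows only.

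Dkk1 encodes a secreted antagonist that binds Lrp5 and Lrp6, and the gene is itself a target of the pathway (chr19:30545863-30549665, reverse strand). Its libraries stood at 36.8, 28.8 and 34.3 CPM at D5, at 7.64, 8.11 and 9.82 CPM at D6 and at 2.83, 4.93 and 2.63 CPM at D7. They stood at 14.2, 9.45 and 4.67 CPM at D8, at 7.36, 6.38 and 5.60 CPM at D10 and at 0.353, 0.885 and 1.12 CPM at D15. D5 was above every other library, D15 was under every other library, and D8 was spread over the ranges of D6 and D10 and reached into that of D7. Dkk1 fell by 3.26 ± 0.28 on the log2 scale from D5 to D7 (adjusted p = 4.02e-10), rose by 1.47 ± 0.31 from D7 to D8 (adjusted p = 0.000925) and fell by 3.0 ± 0.46 from D10 to D15 (adjusted p = 4.91e-06). Over the course it went from 711 to 14 counts, a D5 level 41.8 times that of D15 (counting interval 24.7 to 76.8), and a log2 fold change of -5.35 ± 0.36 (adjusted p = 9.00e-13). The step from D8 to D10 did not pass (-0.57, adjusted p = 0.138), but did without the third D8 library (-0.87, adjusted p = 0.0083). In the 3 D8 libraries the order of Dkk1 was that of the cardiomyocyte marker sums, which were 3743, 2864 and 1510 CPM. Over the 6 harvests the order was the same on 2 and the opposite on 2, and the part of those sums in the spread of Dkk1 was not tested.

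Sfrp1 and Sfrp2 encode secreted proteins with a cysteine-rich domain like that of Frizzled, through which they can bind Wnt ligands. Sfrp1 (chr8:23411502-23449632, forward strand) stood at 43.5, 35.2 and 26.3 CPM at D5, at 226.8, 191.9 and 179.4 CPM at D6 and at 376.4, 334.0 and 287.4 CPM at D7. It stood at 438.1, 376.2 and 321.0 CPM at D8, at 602.2, 565.6 and 522.9 CPM at D10 and at 137.9, 146.6 and 165.3 CPM at D15. D5 was lowest, D15 lay between D5 and D6, D7 and D8 overlapped, and D10 was above every other library. The log2 fold change was 2.51 ± 0.18 from D5 to D6 (adjusted p = 7.83e-08), 0.74 ± 0.15 from D6 to D7 (adjusted p = 0.00225), 0.57 ± 0.15 from D8 to D10 (adjusted p = 0.00962) and -1.91 ± 0.16 from D10 to D15 (adjusted p = 1.72e-07). In 5 of the 6 harvests the 3 libraries had the same order by Sfrp1 and by the cardiomyocyte marker sum, and at D15 the opposite order. The part of that sum in the spread of Sfrp1 was not tested.

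Sfrp2 (chr3:83766321-83774316, forward strand) was low for longer and came later. Its libraries stood at 9.01, 10.3 and 9.54 CPM at D5, at 5.20, 5.97 and 5.23 CPM at D6 and at 4.17, 6.32 and 6.97 CPM at D7. They stood at 7.55, 8.13 and 8.97 CPM at D8, at 86.8, 85.04 and 77.7 CPM at D10 and at 192.9, 289.8 and 279.9 CPM at D15. D6 and D7 overlapped, while D10 was above every earlier library and D15 above all of D10. Sfrp2 rose by 3.35 ± 0.16 on the log2 scale from D8 to D10 (adjusted p = 3.08e-14) and by 1.61 ± 0.11 from D10 to D15 (adjusted p = 1.66e-11), the step in which Sfrp1 fell. Before that it fell by 0.82 ± 0.22 from D5 to D6 (adjusted p = 0.00449), a call lost in limma-voom (0.0777), and the fall of 0.73 ± 0.21 from D5 to D7 (0.0056) was lost there too (0.0697). The fibroblast and matrix marker sum had means of 19110 CPM at D8, 27930 CPM at D10 and 45200 CPM at D15, and the epicardium sum 817.0 CPM, 1541 CPM and 2622 CPM. Their part in the rise of Sfrp2 was not tested.

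The change from Sfrp1 to Sfrp2 can be read on a scale that compares genes, CPM per kilobase of exon. On that scale Sfrp2 made up 36.5% ± 6.45 (SD, n = 3) of the sum of both at D5, between 2.20% and 5.94% in the 9 libraries of D6 to D8, 23.1% ± 0.42 at D10 and 77.2% ± 3.06 at D15. The libraries of D15, from 74.0% to 80.1%, were above every other library. Their levels at D15 were 31.5, 33.5 and 37.8 CPM per kilobase for Sfrp1 and 89.6, 134.6 and 130 for Sfrp2. Among the 9 genes, Tcf7 had the highest mean level per kilobase at D5 (23.5), Sfrp1 from D6 (45.6) to D10 (128.9) and Sfrp2 at D15 (118.1), while Sp5 was lowest on each day through D10 and Dkk1 at D15 (0.324).

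**Figure D3:**
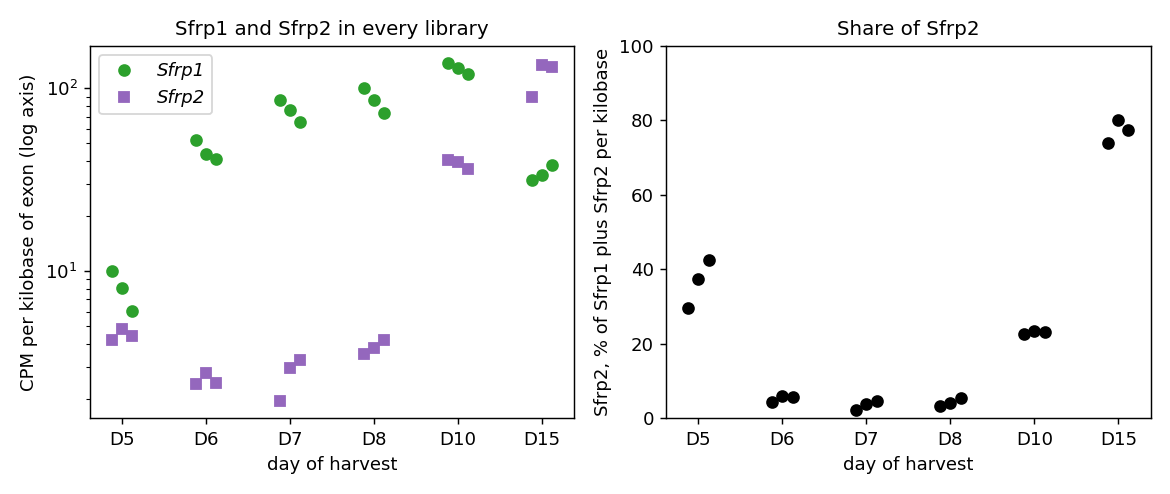
Left, levels of Sfrp1 (circles) and Sfrp2 (squares) in CPM per kilobase of exon (y axis, log scale) in every library by day of harvest (x axis); right, the share of Sfrp2 in the sum of both, in percent. Sfrp1 lies above Sfrp2 in all libraries from D5 to D10 and below it in the 3 libraries of D15, where the share is 74.0% to 80.1%.

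Rspo3 encodes an R-spondin, a secreted agonist that binds Lgr receptors and keeps Frizzled at the cell surface (chr10:29452416-29535867, reverse strand). Its libraries stood at 12.4, 14.9 and 17.8 CPM at D5, at 10.5, 8.57 and 15.05 CPM at D6 and at 5.06, 4.93 and 7.44 CPM at D7. They stood at 7.84, 6.96 and 4.31 CPM at D8, at 15.3, 12.9 and 5.22 CPM at D10 and at 8.29, 13.1 and 6.07 CPM at D15. In the order of the day means, D5, D6, D10, D15, D8 and D7, each overlapped its neighbour. Rspo3 fell by 1.37 ± 0.35 on the log2 scale from D5 to D7 (adjusted p = 0.00272). The difference between D15 and D5 (-0.73 ± 0.33, adjusted p = 0.0525) lay at the threshold and passed it with upper quartile factors, in DESeq2, in limma-voom and in a fit of these days alone (adjusted p from 0.0118 to 0.0447). It also passed without any 1 of 6 libraries, with adjusted p from 0.0102 without the second D15 library to 0.0462 without the third D8 library. The fall from D6 to D7 (-0.97 ± 0.36, adjusted p = 0.0486) was lost in 14 of 25 alternatives, with adjusted p up to 0.188 without the third D6 library. The step from D8 to D10 (0.82 ± 0.36, adjusted p = 0.0954) passed without the third D10 library (1.13, adjusted p = 0.00439), which held 27 counts against 100 and 75 in the others.

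Set side by side, the 5 steps between neighbouring harvests moved different genes of the 9. From D5 to D6, Nkd1 and Sfrp1 rose and 4 genes fell, Axin2, Lef1, Dkk1 and Sfrp2, where 18.2% of all tested genes rose and 16.4% fell. Sp5 was lower as well, but is not counted in a comparison with D5, the harvest through which it passed the filter. From D6 to D7, Nkd1 and Sfrp1 rose again and 5 fell, against 15.1% and 15.3% of all tested genes. The fallers were now Axin2, Lef1, Tcf7, Dkk1 and Rspo3, and 3 of the 9 fell without the third D6 library.

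The step from D7 to D8, at which the label changes from progenitor to cardiomyocyte, had 1 riser, Dkk1, and 3 fallers, Axin2, Lef1 and Tcf7, beside 12.6% and 11.6% of all tested genes. Without the first D15 library, Sfrp2 was a second riser (0.49, adjusted p = 0.0299). The call for Tcf7 was lost without any 1 of the 3 D7 libraries, the first D8 library or the third D8 library. From D8 to D10, Sfrp1 and Sfrp2 rose and 1 gene, Tcf7, fell, where 17.3% of tested genes rose and 13.9% fell. Leaving out the first or the third D8 library made that 2 fallers, with Nkd1 or Dkk1 added. From D10 to D15, 5 of the 9 rose (Axin2, Lef1, Nkd1, Sp5 and Sfrp2) and 3 fell (Tcf7, Dkk1 and Sfrp1), against 26.4% and 24.4% of all tested genes.

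From D5 to D7, 2 of the 9 genes rose (Nkd1 and Sfrp1) and 6 fell (Axin2, Lef1, Tcf7, Dkk1, Sfrp2 and Rspo3), where 26.2% of tested genes rose and 26.1% fell. From D8 to D15, the 5 genes that rose from D10 to D15 rose and 3 (Tcf7, Dkk1 and Sfrp1) fell, against 32.9% and 31.5%, and Rspo3 did not pass (0.50, adjusted p = 0.249). The call for Sp5 among the 5 rested on 6 counts at D8 and 22 at D15. It was lost without the first D8 library, the third D8 library or the third D15 library. Between D5 and D15, 3 rose (Nkd1, Sfrp1 and Sfrp2) and 4 fell (Axin2, Lef1, Tcf7 and Dkk1), where 40.3% of tested genes rose and 37.7% fell. The mean of the cardiomyocyte harvests against that of the progenitor harvests gave the same 3 and 4 genes, with 39.3% and 37.8% of all tested genes called higher and lower. In that comparison the log2 fold change was 3.05 ± 0.11 for Sfrp2 (adjusted p = 3.84e-18) and -1.84 ± 0.08 for Tcf7 (adjusted p = 2.59e-18). For Sp5 it was -1.20 ± 0.65 (adjusted p = 0.0629), and passed without any 1 of 5 libraries (0.0125 to 0.0491). The progenitor mean includes D5, the harvest through which Sp5 passed the filter, so that these Sp5 values are a description. These comparisons share libraries with each other.

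**Figure D4:**
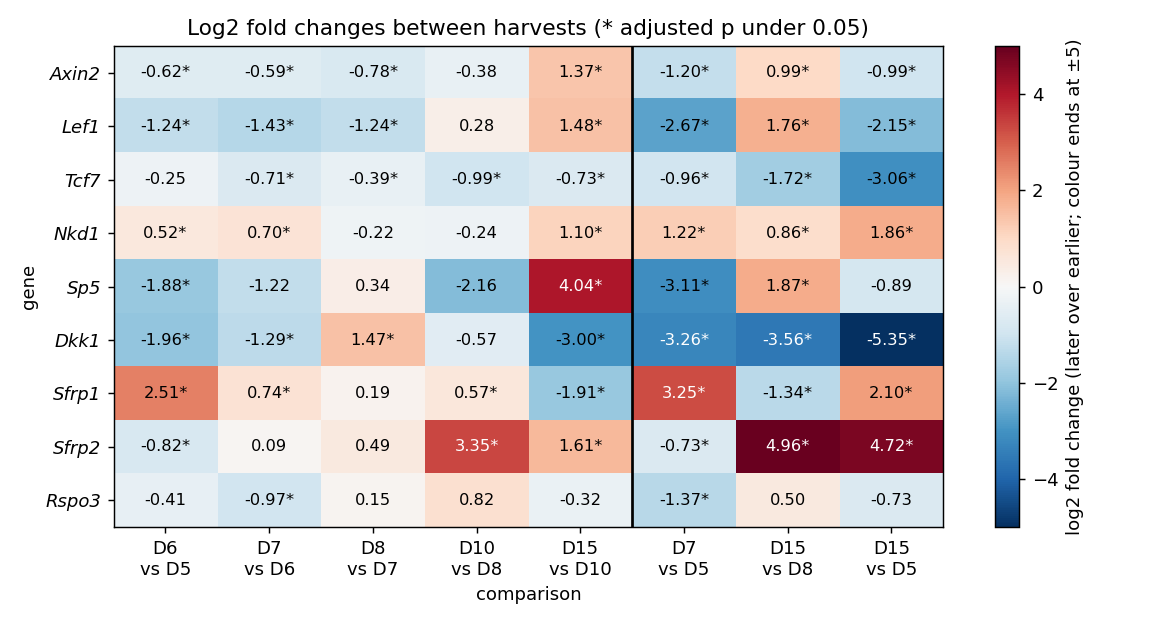
Log2 fold change of each gene (y axis) in the 5 steps between neighbouring harvests and in 3 longer spans (x axis), with the value in each cell, a star for an adjusted p under 0.05 in edgeR. In the column for D15 against D10, Axin2 (1.37), Lef1 (1.48), Nkd1 (1.10) and Sp5 (4.04) are positive and Tcf7 (-0.73) is negative.

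The genes nearest to each of the 9 in course over the 6 day means were found by the root mean square of the differences in centred log2 CPM, which describes likeness in this course alone. A prior of 2 counts went into each log2 CPM, which flattens the course of a gene with few counts. Among the genes named here this concerns most Sp5, with day means down to 0.0644 CPM, Abcc6 (down to 0.217 CPM) and Slc29a4 (down to 0.177 CPM). To a lesser degree it also concerns 3110082D06Rik (down to 0.472 CPM), Dkk1 (0.786 CPM), Rasef (0.867 CPM) and Gldc (0.974 CPM). The nearest to Axin2 were Abcc6 (0.165), Apcdd1 (0.214) and Jdp2 (0.229), of which Apcdd1 encodes a membrane-bound Wnt inhibitor and is in a list of Wnt targets given further on. Sp5 was nearest to Sult4a1 (0.291), Jdp2 (0.294) and Leprel1 (0.295), and among the 9 to Axin2 (0.462). Lef1 was nearest to 3110082D06Rik (0.327), 4930420K17Rik (0.362) and Tnnt3 (0.366), and among the 9 to Axin2 (0.6). Tcf7 had a closer companion than any other of the 9, Ric3 (0.092), followed by Tead4 (0.136), a partner of the Hippo pathway factors, and Slc29a4 (0.157).

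Nkd1 was nearest to Slc17a5 (0.116), Lrrk2 (0.131) and Blvrb (0.136), and Rspo3 to 1700017B05Rik (0.119), Pdxp (0.121) and Pgbd5 (0.127). For Dkk1 the nearest were farther away, Gldc (0.412) and Rasef (0.412). Sfrp1 was nearest to Ak5 (0.313), Adamts15 (0.321) and Adam12 (0.324), where Adamts15 and Adam12 encode metalloproteases. Sfrp2 was nearest to Lgi3 (0.203), Prr15 (0.221) and Cav3 (0.252), the last of which encodes the caveolin of muscle. Through D8 the day means of Lgi3, Prr15 and Cav3 were at most 0.421 CPM, where the prior of 2 counts sets much of the log2 value. No other gene of the 9 was near Sfrp2, the closest being Nkd1 (1.83).

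The rest of the pathway was described by 4 lists with 83 genes in all. Of 20 other canonical targets, 13 could be tested, and from D5 to D7, 2 of them rose and 10 fell, where 26.2% of all tested genes rose and 26.1% fell, and the median log2 fold change was -0.94 beside 0.01 over all tested genes. From D5 to D15, 2 rose and 7 fell, beside 40.3% and 37.7% of all tested genes (median -0.39, all genes 0.03). Msx2, a homeobox gene of BMP and Wnt responses, went from 133, 142 and 154 CPM at D5 to 1.06, 2.48 and 0.639 CPM at D15 (-6.69 ± 0.27, adjusted p = 2.85e-14). Tbx3, a T-box factor of the conduction system and limb, fell by 3.78 ± 0.21 (adjusted p = 8.91e-14) and the surface receptor Cd44 by 1.36 ± 0.13 (adjusted p = 1.68e-10). Bambi, a decoy receptor for BMP and activin ligands, rose by 1.12 ± 0.11 (adjusted p = 1.04e-08).

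Nkd2, the paralogue of Nkd1, took the opposite direction between D5 and D7. From D5 to D15, however, Nkd2 rose by 2.70 ± 0.29 (adjusted p = 1.13e-09, edgeR), and Nkd1 rose as well. It fell by 1.99 ± 0.45 on the log2 scale from D5 to D7 (adjusted p = 0.000427) and then rose by 2.59 ± 0.29 from D10, with 4.6, 2.59 and 2.71 CPM, to D15, with 19.7, 18.6 and 22.2 CPM (adjusted p = 1.66e-08). Apcdd1, near Axin2 in course, had a fall of 0.94 ± 0.13 from D5 to D7 (adjusted p = 9.31e-07) and a rise of 1.55 ± 0.15 from D10 to D15 (adjusted p = 9.31e-10). In this list 4 of the 13 tested genes rose and 3 fell from D10 to D15, shares near the 26.4% and 24.4% of all tested genes, with a median of -0.09 (all genes -0.01). Msx2 was among those that fell (-1.69 ± 0.46, adjusted p = 0.00466) and Tbx3 among those that rose (1.35 ± 0.33, adjusted p = 0.00135).

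Of 16 other secreted antagonists and agonists, 9 could be tested, and 4 rose and 2 fell from D5 to D15, beside 40.3% and 37.7% of all tested genes (median 1.65, all genes 0.03). The R-spondin Rspo1 went from 2.62, 3.21 and 3.81 CPM at D5 to 85.1, 95.1 and 93.4 CPM at D15 (4.81 ± 0.20, adjusted p = 3.19e-17). Rspo2, which passed the filter through D15 and 2 D10 libraries, stood at 0.436, 0.838 and 0.409 CPM at D5 and at 8.81, 15.2 and 24.5 CPM at D15, given as a description. Rspo2 is still counted in the 4 that rose and in the median, which limits the comparison with all tested genes. For Rspo3, D15 and D5 overlapped. Igfbp4, a secreted IGF-binding protein that can also antagonise Wnt, rose by 1.89 ± 0.09 (adjusted p = 9.95e-16). Draxin, a secreted guidance protein and Wnt antagonist, had 130 counts at D5 but 0 at D15, which is at least 35.6-fold lower against a floor of 3 counts over the group. Sfrp5, of the family of Sfrp1, went from 18.5, 14.4 and 13.6 CPM at D5 through 182, 136 and 106 CPM at D8 to 3.17, 2.66 and 4.16 CPM at D15 (D15 against D5 -2.20 ± 0.55, adjusted p = 0.00253).

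Of 21 receptors for Wnt and R-spondin, 18 could be tested, and from D5 to D15, 9 rose and 6 fell, near the 40.3% and 37.7% of all tested genes (median 0.11, all genes 0.03). Among the Frizzled receptors, Fzd1 went from 44.6, 43.4 and 38.7 CPM to 146, 142 and 155 CPM (1.80 ± 0.12, adjusted p = 6.13e-12) and Fzd6 rose by 1.92 ± 0.17 (adjusted p = 2.55e-11), while Fzd3 fell by 0.90 ± 0.09 (adjusted p = 1.59e-10) and Fzd7 by 0.89 ± 0.08 (adjusted p = 2.20e-10). Fzd2 (-0.88) and Fzd4 (-0.4) also fell. The other 2 of the 6, Fzd10 and the R-spondin receptor Lgr5, passed the filter through D5 alone, so that their lower values are a description. Both are still counted in the 6 and in the median, which limits the comparison with all tested genes. Fzd10 had 82 counts at D5 but 0 at D15, at least 22.5-fold lower, and Lgr5 had 38 and 9. Of 26 genes of the intracellular pathway, which could all be tested, 9 rose and 11 fell, again near 40.3% and 37.7% (median -0.09, all genes 0.03). The falls included Wls, which carries Wnt ligands to the cell surface (-0.91 ± 0.07, adjusted p = 6.49e-13), Dvl2, a Dishevelled (-1.11 ± 0.09, adjusted p = 2.88e-12), Axin1 (-0.80 ± 0.07, adjusted p = 3.09e-11) and the co-repressor Tle3 (-1.01 ± 0.09, adjusted p = 3.55e-11). The risers were the co-repressor Tle2 (3.79), Apc2 (2.73), the beta-catenin cofactor Pygo1 (1.53) and the Wnt acyltransferase Porcn (0.74), and by 0.23 to 0.48 Dvl1, Tle1, Csnk1a1, Tcf7l2 and Bcl9l. Tle2 and Apc2, with 14 and 17 counts at D5, passed the filter through later harvests alone, so that their rises are a description. Both are still counted in the 9 that rose and in the median. Ctnnb1, the gene of beta-catenin, was named after its values were seen and differed between D15 and D5 by -0.02 ± 0.05 (adjusted p = 0.692).

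**Figure D5:**
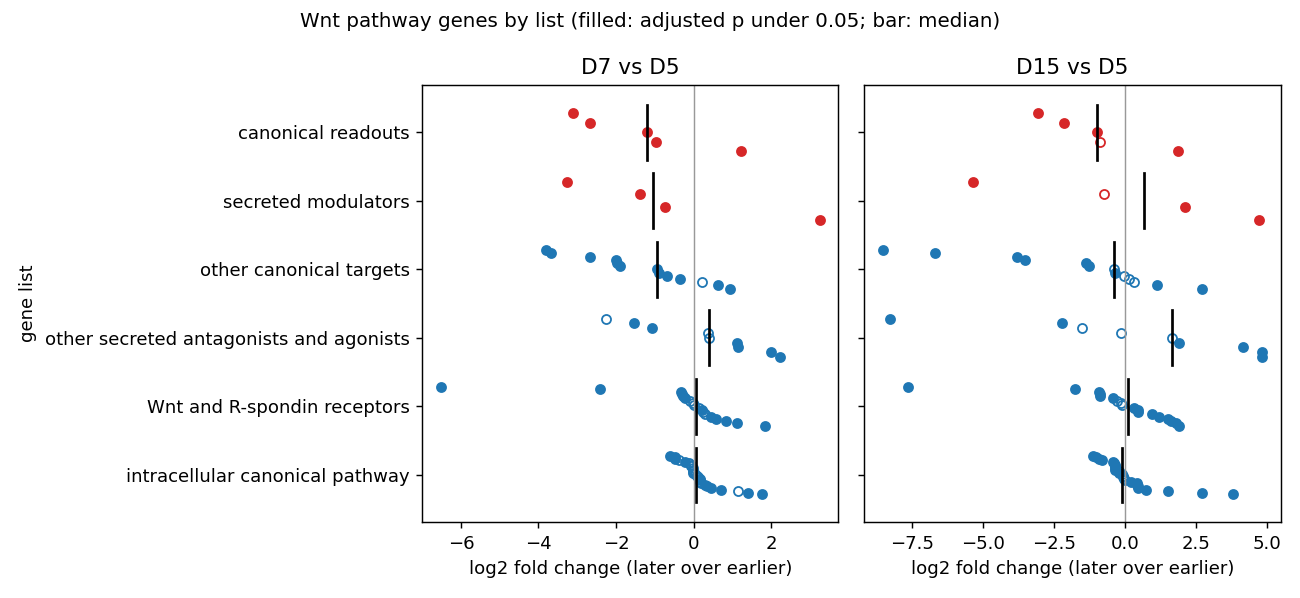
Log2 fold change (x axis) of each tested gene in the 2 groups of the 9 genes (red) and in 4 further pathway lists (blue), for D7 against D5 and for D15 against D5, with filled points at an adjusted p under 0.05 in edgeR and a bar at the median of the list. The other canonical targets have a median of -0.94 at D7 and -0.39 at D15, and the intracellular genes one of 0.07 and -0.09.

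Exons of 4 of the 9 genes overlap those of an annotated gene on the other strand, over 3.8% of the exon length for Axin2, 13.8% for Lef1, 16.1% for Sfrp2 and 13.1% for Rspo3. The use of strand in the counting is not given in the sources used here, so these levels are uncertain by the reads of those neighbours. Of stretches of 50 bases, the read length, 86.3% were unique to the gene for Lef1, 88.0% for Sfrp2 and 88.4% for Rspo3, and at least 97.85% for the others. Matches on either strand were counted. Stretches shared with the neighbours on the other strand thus count as not unique, and these shares are not a limit separate from the overlap. Sp5 has also been an older symbol of another gene, Phxr4, which has a row of its own in the table.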

How the data were processed

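Poly(A) RNA libraries were made with the TruSeq RNA v2 kit and sequenced as single-end reads of 50 bases, per the labels, and STAR and mm10 are named in the submitters' processing notes. The deposited table holds raw counts per gene symbol, and the counting tool, annotation, versions and use of strand are not given in the sources used here. Its columns were matched to samples by day, and 3 columns that matched no sample were not used. Of 23337 symbols, 5267 had no count in the 18 libraries. Library pairs of a day differed by more than sampling noise (chi-square over degrees of freedom 2.206 to 9.232).

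The tests were run in R 4.3.3 with edgeR 4.0.16, using filterByExpr (minimum count 10), TMM factors, 1 mean per day over all 18 libraries, robust quasi-likelihood F tests with 12 residual degrees of freedom, and Benjamini-Hochberg adjustment over 13116 genes, with calls under 0.05. The SE is the log2 fold change over the square root of F. CPM are counts scaled to TMM-adjusted library totals, and levels per kilobase divide them by merged GENCODE M21 exon length. Counting intervals are 95% binomial ones. Coordinates are those of GENCODE M21 on mm10. As alternatives, factors were RLE or upper quartile ones, tests were those of DESeq2 1.42.0 or of limma 3.58.1 (voom), and further fits used other filters on low counts, fits of the compared days alone, and each library left out. Tables used pandas 2.3.3 and scipy 1.17.1 in Python 3.11.15, figures matplotlib 3.10.9.

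The 9 genes were described in all 10 comparisons. From each of the 4 other pathway lists, the 4 called genes with the smallest p for D15 against D5 were named, with exceptions to the direction of the list, and the 3 nearest courses for each of the 9 genes, except for a gene near Dkk1 that is not reported here. Of 151 list entries 149 were found under their own symbol and 2 under an older one. The genes and lists were chosen with earlier results of these data known.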

Additional observations from a re-analysis of the deposited data

How the results depend on the processing

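The counts of called genes and of called members of the 9 kept within 1.5 times their value in all 198 cases with another scaling, test, filter or choice of days, and in 518 of 522 with 1 library left out. With 1 library left out, members called lower from D6 to D7 were 3 to 5, members called higher from D7 to D8 1 to 2 and members called lower from D8 to D10 1 to 2, for which the cause was not tested. Of the log2 fold changes of single members, 532 of 544 kept their direction and side of the threshold under those settings, 7 passed it only there and 5 no longer passed. With 1 library left out, 1415 of 1458 did so, 16 passed only then, 22 no longer passed and 5 changed sign, none of them called. The latter were Lef1 from D8 to D10 (-0.02 to 0.47, lowest without the second D10 library), Sp5 from D7 to D8 (-1.45 to 0.99, below 0 without the third D7 library, at -0.2, and without the second D8 library), Sfrp2 from D6 to D7 (-0.06 to 0.28, lowest without the third D7 library) and Rspo3 from D7 to D8 (-0.03 to 0.36, lowest without the first D8 library), and the cause was not tested. Depth limits Sp5, with 1 count at D10, and Dkk1, with 14 counts at D15. No paired analysis was possible because the columns of the count table carry no replicate number, although the labels number the libraries of each day, and column order is not a pairing.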
